A study of Mus musculus with 6 samples.

Results

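The 6 genes *Smg1*, *Atm*, *Atr*, *Prkdc*, *Mtor* and *Trrap* encode the phosphatidylinositol 3-kinase-like kinases, a family of very large proteins that are also called PIKKs. They were followed by name in RNA sequencing counts of monocytes that had been isolated from the spleen of mice with (IL-4Rα+/+) or without (IL-4Rα-/-) the IL-4 receptor alpha chain. They make up 6 of 55421 counted genes, and all 6 were among the 13849 genes with enough counts for a test. The family was picked out because its long transcripts differed between the genotypes in these counts. Its genotype differences are therefore given as a description, without a test.

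The PIKKs share a kinase domain that resembles that of the lipid kinase PI3K, but they phosphorylate proteins. SMG1 phosphorylates the helicase UPF1 in nonsense-mediated decay, the pathway that removes mRNAs with a premature stop codon. ATM, ATR and DNA-PKcs, the product of *Prkdc*, respond to broken or stalled DNA, whereas mTOR couples nutrients and growth factors to protein synthesis and cell growth. TRRAP has lost its kinase activity and is a scaffold of the histone acetyltransferase complexes SAGA and TIP60.

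Each genotype was represented by 3 mice, labelled as C57BL/6, with 1 library per mouse. The IL-4Rα-/- mice lack the receptor chain in the whole body and not in myeloid cells alone. The methods name littermates of this line as its controls, without saying which of these 6 mice shared a litter. No treatment was named for either group, the sex of the mice was not given in the sources used here, and the methods state an age of 8 to 16 weeks for all animals of the study. The cells were enriched by negative selection, in which antibodies and magnetic beads remove the other spleen cells.

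Between 26807281 and 29033297 reads per library were counted on genes. *Il4ra*, the targeted gene, had 137, 128 and 177 CPM (counts scaled to libraries of equal total with the TMM factors of edgeR) in IL-4Rα+/+ and 27.9, 79.4 and 31.8 CPM in IL-4Rα-/- replicates 1 to 3, so that IL-4Rα-/- replicate 2 kept more of its reads than the other IL-4Rα-/- libraries. Monocyte markers were high in all 6 libraries, with a sum of 8018 to 11093 CPM over 10 markers in IL-4Rα+/+ and 7387 to 9191 CPM in IL-4Rα-/- libraries. Of these, 8 were lower and 2 (*Ly6c2* and *Ccr2*) higher in IL-4Rα-/-, 0 of them with an unadjusted p under 0.05 by edgeR, and their median log2 fold change was -0.28. Markers of other cells were present as well. The summed level of 7 red pulp macrophage markers was 2314 to 2777 CPM in IL-4Rα+/+ and 3122 to 4836 CPM in IL-4Rα-/- libraries. The 8 of 9 listed erythroid markers that were found summed to 57.1 to 128 CPM and 167 to 418 CPM, and 9 neutrophil markers to 53.8 to 256 CPM and 105 to 685 CPM, with *Ly6g* at 0.315 CPM or less. All genes tested of these 3 lists had a log2 fold change above 0, 6 of 7, 7 of 8 and 5 of 8 of them with an unadjusted p under 0.05 by edgeR. The 7 eosinophil, basophil and mast cell markers summed to 6.98 to 20.2 CPM and 27.2 to 41.9 CPM, with 6 of 7 higher and 5 of these past an unadjusted p of 0.05. Of 7 B and plasma cell markers, 6 were higher and 1 lower, and of 11 pancreatic acinar markers, 11 were higher. In each of these 2 lists 1 marker passed an unadjusted p of 0.05 by edgeR. Other lists were mixed, with 0 markers past it. Of 7 T and NK cell markers, 4 were higher and 3 lower, and of 6 dendritic cell markers, 2 were higher and 4 lower. The part of all these markers in the values of the kinase genes was not tested. In bulk RNA, fewer cells of a type and less RNA per cell cannot be told apart.

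*Smg1* is the longest of the 6 genes by transcript. It occupies chromosome 7, 118131308 to 118243670 (minus strand, GRCm38), and its longest annotated transcript has 63 exons and 15557 bases, 10974 of them coding. The promoter windows of *Smg1* and *Mtor* are printed here because these genes had the widest gaps on the log2 scale between the lowest IL-4Rα+/+ and the highest IL-4Rα-/- library among the 5 with an entry in the RefSeq promoter table of GRCm38.p6. Each window runs from 250 bases before to 50 bases after the RefSeq start, 5′ to 3′ on the strand of the gene. Capitals mark GGGCGG, the core of the GC box bound by SP1-type factors, on either strand (CCGCCC when read on the reverse strand), and in *Mtor* also TTC and GAA with 3 bases of any kind between them, a palindrome of the type bound by STAT factors.
Smg1, chr7:118243588-118243887, minus strand: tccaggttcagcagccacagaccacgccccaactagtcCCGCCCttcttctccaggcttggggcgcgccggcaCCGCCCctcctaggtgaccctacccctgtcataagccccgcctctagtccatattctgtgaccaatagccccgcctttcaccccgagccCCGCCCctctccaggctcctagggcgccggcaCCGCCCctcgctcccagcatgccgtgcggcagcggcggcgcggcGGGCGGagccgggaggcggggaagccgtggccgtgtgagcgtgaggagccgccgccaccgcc
Mtor, chr4:148448332-148448631, plus strand: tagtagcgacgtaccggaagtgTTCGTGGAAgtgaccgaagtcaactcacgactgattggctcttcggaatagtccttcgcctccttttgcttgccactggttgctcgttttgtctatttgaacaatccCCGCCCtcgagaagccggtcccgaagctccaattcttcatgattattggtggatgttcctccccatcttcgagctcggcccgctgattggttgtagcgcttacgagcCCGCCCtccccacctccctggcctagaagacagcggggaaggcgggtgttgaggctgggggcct

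The *Smg1* window held 5 GGGCGG matches and had a GC content of 72%. Of 32851 promoter windows of the same length in that table, 35.7% held at least 1 GGGCGG match, 5.49% held 4 or more, and the median GC content was 52.7%. The other windows held 1 match in *Atm* and 2 each in *Atr*, *Mtor* and *Trrap*. TTC and GAA with 4 bases between them, the spacing known for STAT6, which carries the signal of the IL-4 receptor, were present in 6.95% of all windows and in 0 of the 5 windows of the family. The same letters with 3 bases between them were present in 8.3% of all windows and once, in *Mtor*. Both strands were searched, overlapping matches were counted separately, and the GC box was chosen after the sequences had been seen. A match describes letters only, and *Prkdc* had no entry.

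*Smg1* was measured at 287, 327 and 289 CPM in IL-4Rα+/+ replicates 1, 2 and 3 and at 228, 212 and 243 CPM in IL-4Rα-/- replicates 1, 2 and 3. Every IL-4Rα-/- library lay below every IL-4Rα+/+ library. The means were 301 ± 22.3 CPM and 228 ± 15.6 CPM (SD, n = 3 each), a log2 fold change of -0.40 (SE 0.09) or a level that was 24.4% lower in IL-4Rα-/- monocytes. With 6052 to 9032 reads per library, this is the family member with the most reads. Among all genes tested, 7.26% had a log2 fold change below that of *Smg1*, and among genes with a transcript of 8 kb or more this was 10.7%.

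The DNA damage kinases had fewer reads. *Atm* (chromosome 9, 53439149 to 53536740, minus strand), which is activated by double-strand breaks, was measured at 24.0, 29.2 and 26.4 CPM in IL-4Rα+/+ and at 21.96, 16.4 and 22.2 CPM in IL-4Rα-/- replicates 1 to 3. The groups did not overlap, although IL-4Rα+/+ replicate 1 and the IL-4Rα-/- replicates 1 and 3 were close to each other, and IL-4Rα-/- replicate 2 was the lowest. The log2 fold change was -0.40 (SE 0.15), from 26.5 ± 2.64 to 20.2 ± 3.29 CPM (SD, n = 3 each).

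*Atr* (chromosome 9, 95857597 to 95951781, plus strand), which is activated at stalled replication forks, was measured at 32.6, 36.03 and 27.4 CPM in IL-4Rα+/+ and at 29.0, 22.1 and 30.9 CPM in IL-4Rα-/- replicates 1 to 3. Here the groups overlapped, since IL-4Rα+/+ replicate 3 lay below the IL-4Rα-/- replicates 1 and 3. The log2 fold change of -0.23 had an SE of 0.16, and it was -0.09 (SE 0.13) without IL-4Rα-/- replicate 2. *Atr* shares 726 exonic bases with the antisense gene *1700065D16Rik* and 462 with the antisense gene *Gm16794*. These had at most 3 and 21 counts in any library against at least 630 for *Atr*. Which of the strand columns of the counting tool was deposited is not named, so reads of *Atr* and its antisense genes cannot be told apart with certainty.

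*Prkdc* (chromosome 16, 15637866 to 15842235, plus strand), the kinase of non-homologous end joining, has 86 exons, the most of the 6 genes. It was measured at 34.04, 39.98 and 39.6 CPM in IL-4Rα+/+ and at 32.5, 28.1 and 32.7 CPM in IL-4Rα-/- replicates 1 to 3. The groups did not overlap, but IL-4Rα+/+ replicate 1 was only slightly above the IL-4Rα-/- replicates 1 and 3. The log2 fold change was -0.28 (SE 0.10), from 37.9 ± 3.31 to 31.1 ± 2.59 CPM (SD, n = 3 each).

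*Mtor* (chromosome 4, 148448611 to 148557683, plus strand) was the most even of the 6 genes within the genotypes. It was measured at 55.1, 61.0 and 58.2 CPM in IL-4Rα+/+ and at 47.3, 50.5 and 47.6 CPM in IL-4Rα-/- replicates 1 to 3. No IL-4Rα-/- library reached the lowest IL-4Rα+/+ library. The means of 58.1 ± 2.94 and 48.5 ± 1.81 CPM (SD, n = 3 each) gave a log2 fold change of -0.26 (SE 0.07), a level 16.6% lower in IL-4Rα-/-.

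*Trrap* (chromosome 5, 144767732 to 144859778, plus strand), the scaffold without kinase activity, was measured at 135, 160 and 162 CPM in IL-4Rα+/+ and at 126, 140 and 132 CPM in IL-4Rα-/- replicates 1 to 3. IL-4Rα+/+ replicate 1 lay below IL-4Rα-/- replicate 2, so the groups overlapped. The log2 fold change of -0.20 (SE 0.10), from 152 ± 15.02 to 133 ± 6.64 CPM (SD, n = 3 each), was the smallest of the family.

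**Figure D1:**
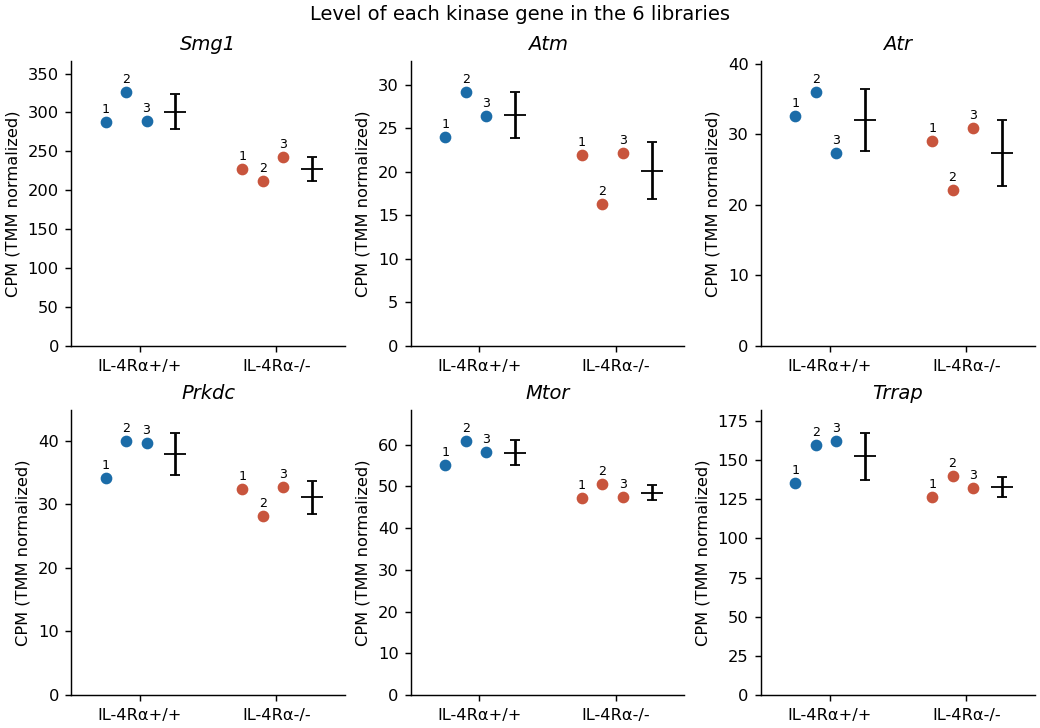
Level of each kinase gene in CPM (y axis, from 0) in the 3 IL-4Rα+/+ (blue) and 3 IL-4Rα-/- (red) libraries, numbered by replicate, with the mean ± SD beside them. The genotypes are apart for *Smg1*, *Atm*, *Prkdc* and *Mtor* and overlap for *Atr* and *Trrap*.

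All 6 log2 fold changes were below 0, as were 48.5% of those of all genes tested. In 4 of 6 genes all IL-4Rα-/- libraries lay below all IL-4Rα+/+ libraries, a pattern found in 7.87% of all genes. With edgeR's quasi-likelihood test and Benjamini-Hochberg adjustment at a threshold of 0.15, 0 of the 6 and 0 of 13849 genes were called (0%). The smallest adjusted p over all genes was 0.618, and 1120 genes had an unadjusted p under 0.05 (8.09%), 605 lower and 515 higher in IL-4Rα-/-. DESeq2 called 80 of 14003 genes at the same threshold (0.571%, with 0.293% called lower), among them *Smg1* as the single member of the family. With the length trend removed, DESeq2 called 28 genes and *Smg1* was not among them. Since the family was chosen from this same contrast, nothing is read from these counts. The median log2 fold change was -0.27 over the 6 kinase genes and 0.01 over all genes tested.

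Levels of different genes were set side by side as CPM per kb of the longest transcript, taking this as the form expressed. The mean over the 6 libraries was 17.0 for *Smg1*, 11.4 for *Trrap* and 6.22 for *Mtor*. *Atr* followed with 3.66, *Prkdc* with 2.73 and *Atm* with 2.38. Neighbours in this order did not overlap in any library down to *Mtor* and *Atr*, whereas *Atr* overlapped *Prkdc* and *Prkdc* overlapped *Atm*. Per kb of all exons merged, *Atr* moved to the last place with 1.26, because its annotated exons cover 23629 bases together against 8102 in the longest transcript. *Smg1* took 47.97% to 50.6% of the reads counted on the 6 genes in IL-4Rα+/+ and 45.2% to 47.8% in IL-4Rα-/- libraries, a share of reads that is not corrected for length.

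The 6 genes did not differ equally from library to library. IL-4Rα+/+ replicate 2 was the highest library for *Smg1*, *Atm*, *Atr*, *Prkdc* and *Mtor*, and IL-4Rα+/+ replicate 3 for *Trrap*. IL-4Rα-/- replicate 2 was the lowest library for *Smg1*, *Atm*, *Atr* and *Prkdc*. For *Mtor* and *Trrap* the same library was the highest of the IL-4Rα-/- libraries. *Mtor* and *Trrap* have a transcript GC content of 54.2% and 53.6%, and the other 4 genes of 40.8% to 44.9%. Genes of 8 kb or more with GC under 48% had a median log2 deviation from their own mean of -0.138 in IL-4Rα-/- replicate 2. With GC of 48% or more it was -0.145, and a link of the kinase levels to GC content was not tested. Pearson's r of log2 CPM over the 6 libraries, which includes the genotype difference and shares the scaling of each library, was 0.97 for *Atm* with *Prkdc*, 0.92 for *Smg1* with *Atm* and 0.89 for *Mtor* with *Trrap*. It was 0.14 for *Atr* with *Trrap* (n = 6 each). Relative to each gene's mean on the log2 scale, the median of the 6 genes was 0.06, 0.26 and 0.17 in IL-4Rα+/+ and -0.12, -0.29 and -0.08 in IL-4Rα-/- replicates 1 to 3. Without IL-4Rα-/- replicate 2, the library with the most *Il4ra* reads of its genotype, the log2 fold changes were -0.35 for *Smg1*, -0.27 for *Atm*, -0.09 for *Atr*, -0.22 for *Prkdc*, -0.29 for *Mtor* and -0.24 for *Trrap*.

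**Figure D2:**
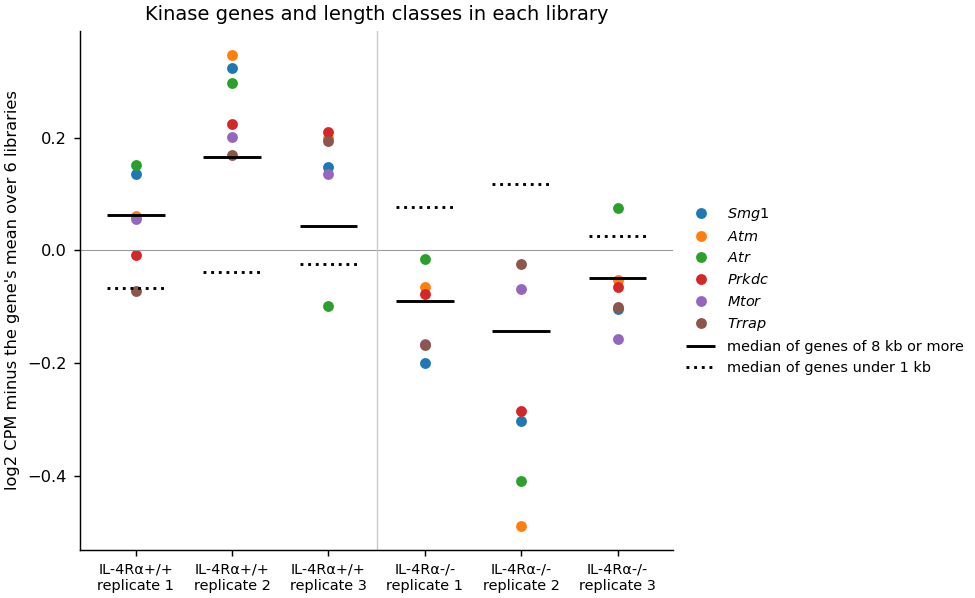
Deviation of each kinase gene in log2 CPM from its own mean over the 6 libraries (y axis; points) in each library (x axis), with the median deviation of all genes with transcripts of 8 kb or more (solid bars) and under 1 kb (dotted bars). Long genes lie above 0 in the IL-4Rα+/+ and below 0 in the IL-4Rα-/- libraries and short genes do the opposite, and in IL-4Rα-/- replicate 2 the points spread from -0.02 for *Trrap* to -0.49 for *Atm*.

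The libraries also differed in *Xist*, the RNA of the inactive X chromosome of female cells. It was at 553 CPM in IL-4Rα+/+ replicate 1 and at 457 CPM in IL-4Rα-/- replicate 3, and at 3.73 CPM or less in the other 4 libraries. *Ddx3y*, a gene of the Y chromosome, was at 0 and 0.10 CPM in these 2 libraries and at 113 to 149 CPM in the other 4. By these genes the 2 libraries read as female and the other 4 as male, which the labels do not state. Between the 2 libraries with *Xist*, the log2 ratio of IL-4Rα-/- to IL-4Rα+/+ was -0.24 for *Smg1*, -0.21 for *Mtor*, -0.11 for *Atm*, -0.08 for *Atr*, -0.06 for *Prkdc* and -0.03 for *Trrap*. Among the 4 libraries without it, the log2 ratio of the means was -0.54 for *Atm*, -0.49 for *Smg1*, -0.39 for *Prkdc*, -0.31 for *Atr*, -0.28 for *Mtor* and -0.28 for *Trrap*. All 6 genes had the lower mean in IL-4Rα-/- in both comparisons, and for each the difference was smaller between the libraries with *Xist*. With 1 library per genotype there, the difference between these comparisons was not tested.

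The kinase genes share the length of their transcripts, 8102 bases in *Atr* to 15557 in *Smg1*, and genotype differences moved with transcript length over all genes. The median log2 fold change was 0.12 over 1204 genes with a longest transcript under 1 kb, 0.09 at 1 to 2 kb, 0.03 at 2 to 4 kb and -0.06 at 4 to 8 kb. It was -0.18 over the 666 genes of 8 kb or more, of which 77.6% were below 0 and 31.5% had all IL-4Rα-/- libraries below all IL-4Rα+/+ libraries. Of these 666 genes, 176 were lower and 9 higher at an unadjusted p under 0.05 by edgeR. Across the 13837 genes with a known length, which are not independent of each other, Spearman's rho of log2 fold change with length was -0.25. The long genes were at -0.19 with a GC content under 48% and at -0.18 above it.

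**Figure D3:**
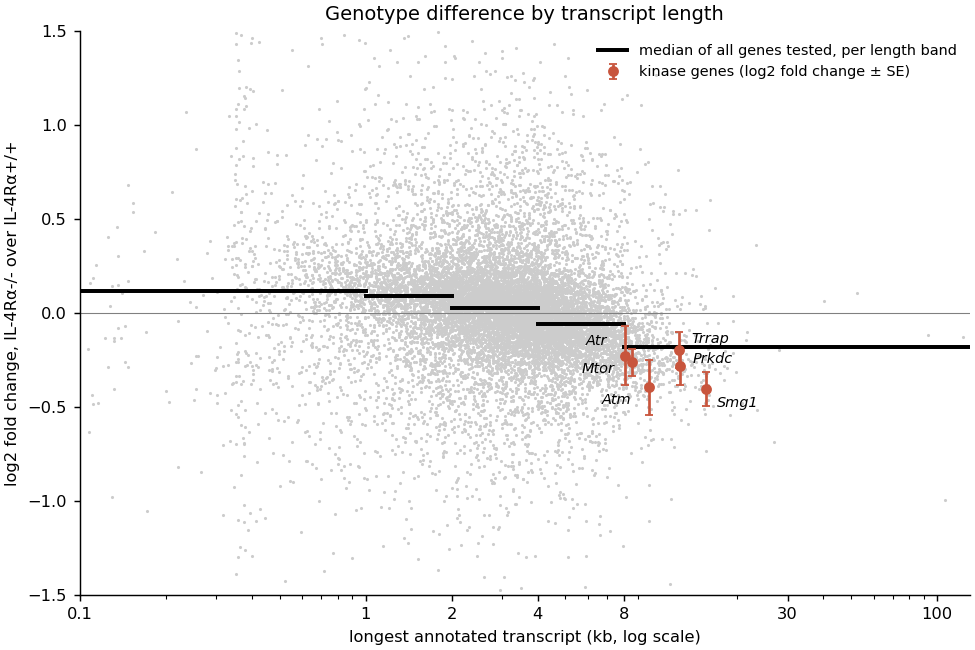
Log2 fold change of IL-4Rα-/- over IL-4Rα+/+ (y axis) against the longest annotated transcript in kb (x axis, log scale) for 13724 genes (grey; 113 genes lie beyond ±1.5 and are not drawn), with the median per length band (black lines) and the 6 kinase genes ± SE (red). The medians fall from 0.12 to -0.18 with length. The kinase genes lie below the line of the longest band, *Trrap* and *Atr* by less than their SE. Since they were chosen from this same contrast, their place below the line is no test.

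With the trend with transcript length removed in each library, the log2 fold changes were -0.28 for *Atm*, -0.22 for *Smg1*, -0.15 for *Mtor*, -0.13 for *Atr*, -0.13 for *Prkdc* and -0.04 for *Trrap*. Their median went from -0.27 to -0.14, and that of all genes from 0.01 to -0.02. The median of the 666 genes of 8 kb or more went from -0.18 to -0.05, so the trend was not fully removed there. The SEs of the kinase genes after the removal were 0.07 for *Smg1* and 0.12 for *Trrap*, so that the value of *Trrap* lay within its SE of 0. With the trend with GC content removed instead, the values were -0.42 for *Smg1*, -0.40 for *Atm* and -0.31 for *Mtor*. They were -0.30 for *Prkdc*, -0.24 for *Trrap* and -0.22 for *Atr*, and the median of the 6 genes was -0.30. The length trend also moved with the share of reads that the counting tool STAR listed under noFeature. This share was 10.3% to 11.7% in IL-4Rα+/+ and 8.87% to 9.68% in IL-4Rα-/- libraries. Such reads matched no annotated exon or, if a stranded column was deposited, none on the strand counted. Those within introns are not told apart from those between genes. Whether the trend stems from the cells or from the libraries was not tested.

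**Figure D4:**
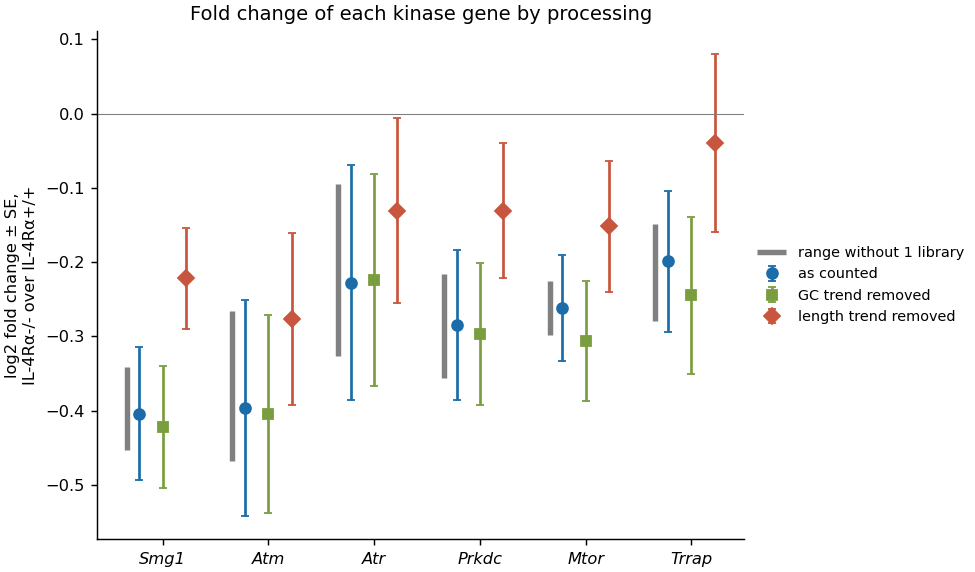
Log2 fold change ± SE of each kinase gene as counted (blue circles), with the GC trend removed (green squares) and with the length trend removed (red diamonds), and the range when each library is left out in turn (grey bars). All values lie below 0, and for each gene the value with the length trend removed is nearer to 0 than those as counted or with the GC trend removed, with *Trrap* at -0.04. For *Atr* and *Atm* the range without 1 library reaches nearer to 0 still, to -0.09 and -0.27.

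*Atm* and *Prkdc* each start close to a gene on the opposite strand. *Npat*, a coactivator of histone genes, starts 307 bases from *Atm*. It had 19.0, 17.7 and 18.2 CPM in IL-4Rα+/+ and 18.5, 14.6 and 15.4 CPM in IL-4Rα-/- replicates 1 to 3, with a log2 fold change of -0.18 (SE 0.12). *Mcm4*, a subunit of the replicative helicase, starts 466 bases from *Prkdc* on the opposite strand and has a longest transcript of 3589 bases. It had 45.3, 36.2 and 44.3 CPM in IL-4Rα+/+ and 47.7, 48.5 and 48.2 CPM in IL-4Rα-/- replicates 1 to 3. All IL-4Rα-/- libraries were above all IL-4Rα+/+ libraries, the opposite of *Prkdc*, with a log2 fold change of 0.20 (SE 0.10). Neither passed an unadjusted p of 0.05 by edgeR. The other genes inside the kinase genes had few reads. *Angptl7*, in an intron of *Mtor*, had 5 to 22 counts, and *Gm45084*, which overlaps *Smg1*, had 2 to 12.

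The partners, regulators and effectors of the kinases were followed in lists written from textbook knowledge. Of 181 listed genes, 177 were tested. Their median log2 fold change was 0.01, with 86 genes lower and 91 higher in IL-4Rα-/-. At an adjusted p under 0.15 by edgeR or DESeq2, 0 of 177 were called. At an unadjusted p under 0.05 by edgeR, 9 (5.08%) were lower and 6 (3.39%) higher, against 4.37% and 3.72% of all genes tested. This total of 15 was 4 without IL-4Rα-/- replicate 1, 5 without IL-4Rα+/+ replicate 2, 8 without IL-4Rα-/- replicate 2 and 7 with the length trend removed. The adjusted p (edgeR) of each of these 15 genes was 0.618.

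**Figure D5:**
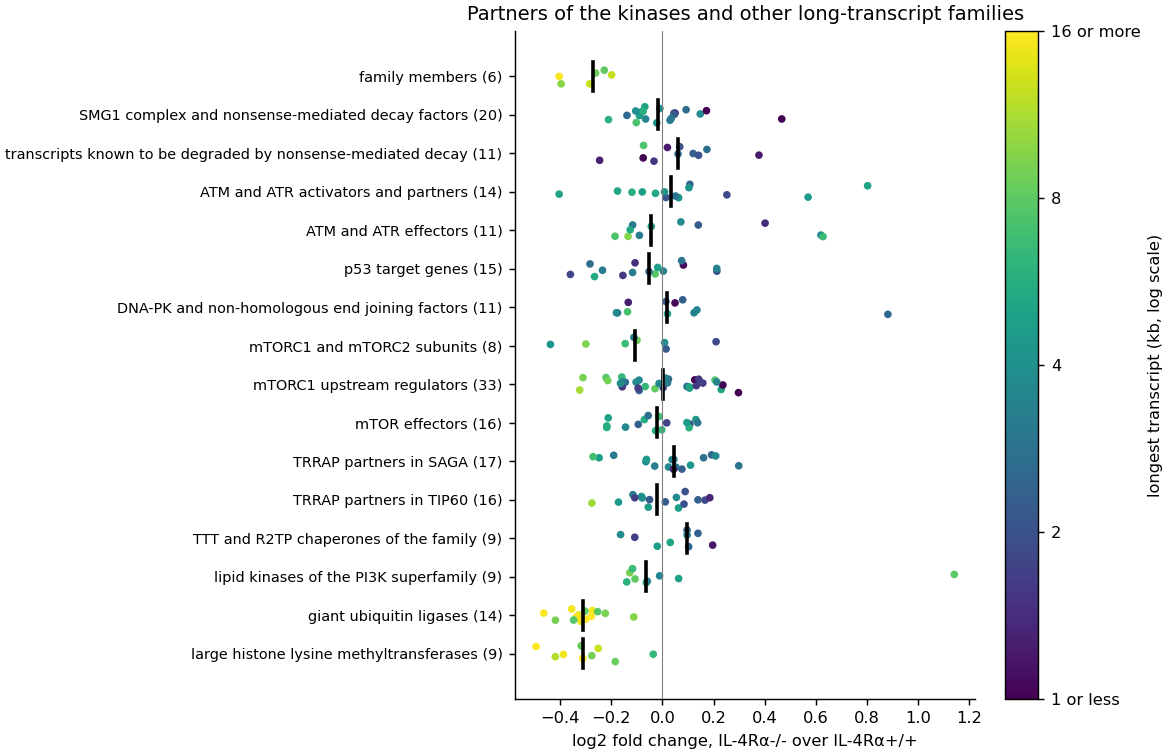
Log2 fold change of IL-4Rα-/- over IL-4Rα+/+ (x axis) for each gene tested (points; colour gives the longest transcript in kb on a log scale) in the family, its partner lists and other families (rows, number of genes tested in brackets), with the median of each list (black bars). The medians of the family and of the families of giant ubiquitin ligases and large histone methyltransferases lie between -0.27 and -0.31, and those of the partner lists between -0.11 and 0.10.

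In the nonsense-mediated decay pathway of SMG1, 11 of 20 factors were lower and 9 higher, with a median log2 fold change of -0.02. *Smg8* and *Smg9*, whose products form the complex with SMG1, had log2 fold changes of 0.03 (SE 0.11) and 0.04 (SE 0.07), and *Upf1*, the substrate, -0.09 (SE 0.08). *Smg6*, the endonuclease of the pathway, was measured at 37.5, 39.7 and 38.1 CPM in IL-4Rα+/+ and at 31.3, 32.6 and 35.7 CPM in IL-4Rα-/- replicates 1 to 3, with a log2 fold change of -0.21 (SE 0.08). It was the only factor with an unadjusted p under 0.05. Of 11 transcripts known to be degraded by this pathway, 4 were lower and 7 higher with a median of 0.06, and none had an unadjusted p under 0.05 by edgeR. *Gas5* had a log2 fold change of 0.06 (SE 0.07), *Snhg1* of 0.17 (SE 0.15) and *Atf4* of 0.07 (SE 0.12).

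Among the activators and partners of ATM and ATR, 5 of 14 were lower and 9 higher (median 0.03). The MRN complex, which recruits ATM to breaks, had log2 fold changes of -0.12 (SE 0.10) for *Mre11a*, -0.18 (SE 0.16) for *Rad50* and 0.11 (SE 0.12) for *Nbn*. *Atrip*, the obligate partner of ATR, was at 0.06 (SE 0.14). Both genes of the list with an unadjusted p under 0.05 by edgeR were higher in IL-4Rα-/-. *Clspn*, the adaptor that passes the ATR signal to CHK1, had 4.71, 2.496 and 4.23 CPM in IL-4Rα+/+ and 6.32, 5.64 and 7.98 CPM in IL-4Rα-/- replicates 1 to 3 (log2 fold change 0.80, SE 0.28). *Timeless*, of the fork protection complex, had 9.31, 15.6 and 13.3 CPM and 17.5, 17.6 and 21.6 CPM (log2 fold change 0.57, SE 0.20).

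Of 11 effectors of ATM and ATR, 6 were lower and 5 higher (median -0.04). *Brca1* was the one with an unadjusted p under 0.05 by edgeR, with 4.15, 2.32 and 3.85 CPM in IL-4Rα+/+ and 5.93, 5.01 and 5.01 CPM in IL-4Rα-/- replicates 1 to 3 (log2 fold change 0.63, SE 0.26). Its longest transcript has 6572 bases, and the direction is the opposite of that of *Atm* and *Atr*. *Chek1* had a log2 fold change of 0.62 (SE 0.38), *Chek2* of 0.14 (SE 0.13) and *Trp53* of -0.09 (SE 0.12). Of 15 p53 target genes tested, 10 were lower and 5 higher (median -0.05), among them *Cdkn1a* at 0.21 (SE 0.17), *Bax* at 0.08 (SE 0.06) and *Mdm2* at -0.12 (SE 0.06). *Trp53inp1*, a stress-induced regulator of autophagy, was the one with an unadjusted p under 0.05 by edgeR, at 68.5 ± 4.87 CPM in IL-4Rα+/+ and 57.0 ± 3.93 CPM in IL-4Rα-/- (SD, n = 3 each; log2 fold change -0.27, SE 0.09).

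In the end joining pathway of DNA-PKcs, 4 of 11 factors tested were lower and 7 higher (median 0.02). *Xrcc5* encodes KU80, which together with KU70 loads DNA-PKcs onto DNA ends. It was the factor with an unadjusted p under 0.05 by edgeR. It had 1.76, 1.70 and 1.25 CPM in IL-4Rα+/+ and 2.82, 2.07 and 3.79 CPM in IL-4Rα-/- replicates 1 to 3, on 33 to 112 counts per library (log2 fold change 0.88, SE 0.30). The groups did not overlap and the direction was the opposite of that of *Prkdc*. *Xrcc6*, which encodes KU70, was at 0.12 (SE 0.11) and *Lig4*, the ligase, at 0.02 (SE 0.16).

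Of 8 subunits of mTORC1 and mTORC2, 5 were lower and 3 higher (median -0.11). *Rictor*, the scaffold of mTORC2 with a transcript of 9312 bases, had 54.9, 65.7 and 54.9 CPM in IL-4Rα+/+ and 47.2, 43.0 and 52.3 CPM in IL-4Rα-/- replicates 1 to 3 (log2 fold change -0.30, SE 0.11). *Rictor* was the subunit with an unadjusted p under 0.05 by edgeR. *Rptor*, the scaffold of mTORC1, was at -0.15 (SE 0.08) and *Mlst8*, common to both complexes, at 0.01 (SE 0.08). Among 33 upstream regulators of mTORC1, 16 were lower and 17 higher (median 0.00257). The 3 with an unadjusted p under 0.05 by edgeR were lower in IL-4Rα-/-. Among them were *Tsc1*, of the complex that restrains RHEB, at -0.22 (SE 0.07), and *Slc38a9*, the lysosomal arginine sensor, at -0.21 (SE 0.08). The 5 genes of the Ragulator complex, *Lamtor1* to *Lamtor5*, ranged from 0.02 to 0.30. Of 16 mTOR effectors tested, 10 were lower and 6 higher (median -0.02), and 0 had an unadjusted p under 0.05 by edgeR.

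Among the partners of TRRAP in SAGA, 6 of 17 tested were lower and 11 higher (median 0.04). *Atxn7*, a subunit of its deubiquitinase module, was at -0.27 (SE 0.09), and *Kat2b*, an acetyltransferase, at -0.25 (SE 0.10), both with an unadjusted p under 0.05 by edgeR. *Kat2a*, the other acetyltransferase, was at -0.03 (SE 0.09). Among the partners in TIP60, 8 of 16 were lower and 8 higher (median -0.02). *Ep400*, the chromatin remodeler of the complex with a transcript of 10685 bases, had 184, 199.9 and 173 CPM in IL-4Rα+/+ and 145, 155 and 160.1 CPM in IL-4Rα-/- replicates 1 to 3 (log2 fold change -0.28, SE 0.08). *Yeats4*, a small histone reader, was at 0.19 (SE 0.07) and was, with *Ep400*, past an unadjusted p of 0.05 by edgeR. *Kat5*, the acetyltransferase itself, was at 0.01 (SE 0.08).

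The PIKKs are folded by the TTT complex with the chaperone HSP90. Of 9 such chaperone genes, 3 were lower and 6 higher (median 0.10). *Telo2* was at -0.02 (SE 0.11), *Tti1* at -0.16 (SE 0.08) and *Tti2* at 0.03 (SE 0.14). *Pih1d1*, of the R2TP adaptor complex, was the gene of this list with an unadjusted p under 0.05 by edgeR, at 0.20 (SE 0.08).

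Sorted by transcript length instead of pathway, the longest partner genes were lower and most of the short ones higher. All 8 with a longest transcript of 8 kb or more were lower in IL-4Rα-/- (among them *Trp53bp1*, *Deptor*, *Rictor*, *Depdc5*, *Sesn3*, *Slc38a9* and *Ep400*), with a median log2 fold change of -0.24, beside 77.6% lower and a median of -0.18 over all 666 genes of that length. An unadjusted p under 0.05 by edgeR was found for 4 of the 8, and for 176 lower genes of the 666. With the length trend removed it was found for 0 of the 8. Of 36 partner genes under 2 kb, 26 were higher, with a median of 0.10. Of these 36 genes 27.8% were lower, beside 36.5% of all genes under 1 kb and 33.6% of those of 1 to 2 kb. With the length trend removed the medians of the 8 long and the 36 short partner genes were -0.12 and 0.01. The median of all 666 genes of 8 kb or more was then -0.05.

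Other families of very large proteins gave values like those of the PIKKs. Of 14 giant ubiquitin ligases, 14 were lower with a median log2 fold change of -0.31, and of 9 large histone lysine methyltransferases, 9 were lower with a median of -0.31. Over all 666 genes of 8 kb or more, 77.6% were lower with a median of -0.18. Both families were listed with earlier results of these data known. By DESeq2, *Birc6* and *Kmt2d* were called in these families, as *Smg1* was among the PIKKs, against 0.571% of all genes and 22 of the 666 genes of 8 kb or more. With the length trend removed, DESeq2 called none of these 3 genes. The medians of the ligases and the methyltransferases were then -0.15 and -0.17, against -0.14 for the PIKKs and -0.05 for all 666 genes of 8 kb or more. The lipid kinases of the PI3K superfamily, which share the kinase fold and have shorter transcripts with a median of 6478 bases, had 7 of 9 genes lower with a median of -0.06, and 0 with an unadjusted p under 0.05 by edgeR. Differences between these families were not tested.

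The genes whose log2 CPM followed the mean of the 6 kinase genes most closely over the 6 libraries were *Usp9x* (Pearson's r = 0.994), *Ino80* (0.990), *Setd2* (0.990), *Tpr* (0.989) and *Ubr3* (0.986). For *Smg1* alone they were *Ubr3* (0.995), *Nipbl* (0.994), *Arid1b* (0.994), *4833420G17Rik* (0.993) and *Zfp458* (0.992). All of these had all IL-4Rα-/- libraries below all IL-4Rα+/+ libraries, a pattern found in 7.87% of all genes tested. They were picked for likeness to profiles in which the genotypes are apart, so this was close to given by the choice. In all, 83 genes reached an r of 0.95 with the mean of the kinase genes, with a median transcript of 7147 bases against 3128 bases over all genes tested. These correlations describe 6 libraries that share the genotype difference and the length trend.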

How the data were processed

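Spleen monocytes of 6 mice were measured by poly(A) RNA sequencing with a directional kit. The authors aligned the reads to GRCm38 with STAR 2.6.1a and Gencode mV23 annotation and deposited raw counts per gene, without normalization. RSEM is named in the submitters' processing notes without a role. Which strand column of STAR was kept is not given in the sources used here. STAR's summary lines (21.1% to 22.8% of reads) were left out. Libraries held 26807281 to 29033297 counts on genes, and counting error alone is 4.63% at 467 counts, the smallest count of a kinase gene. Libraries were grouped by genotype. The wild-type animals of the line were littermates per the methods, but neither methods nor labels tie these libraries to litters. The p-values set the genotype difference against the spread between these libraries only, with the spread of each gene moderated over all genes.

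Genes were filtered with filterByExpr (minimum count 10), scaled with TMM factors, and all 13849 genes kept were fitted in edgeR 4.0.16 (R 4.3.3) by quasi-likelihood, with Benjamini-Hochberg adjustment and the threshold of 0.15 of the methods. DESeq2 1.42.0 was the alternative tool. Correlations used log2 CPM with a prior count of 2. Transcript lengths, GC content and coordinates came from Gencode M21 of the same build, which held 55154 of 55421 identifiers. Length and GC trends were removed by loess offsets (span 0.5) per library. Scripts were tested on simulated data. The kinase genes and all lists were chosen with earlier results of these data known. Named genes were the 6 kinase genes, list members past the threshold or, with none, up to 5 per list with an unadjusted p under 0.05, neighbours within 2 kb or overlapping, the 5 most similar genes, and *Il4ra*. Other partners were named for their role in the complexes after their values were seen. Other alternatives changed the scaling, the filter, the threshold and the replicate block, and left out each library in turn. The comparison by *Xist* and the joint removal of length and GC trends were chosen after seeing the data. *Eda2r*, *Dntt*, *Grb10*, *Taf9* and *Pik3c2g* had too few counts for the test. The values of 1 further gene on the lists are not reported here. Promoter windows are from RefSeq.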

Additional observations from a re-analysis of the deposited data

How the results depend on the processing

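All 96 values of the 6 kinase genes over the alternatives stayed below 0, and 16 of them moved by more than 1 SD between replicates, all with the length trend removed. The median of the 6 genes was -0.27 as reported, -0.14 with the length trend removed, -0.14 with the length trend removed and the replicate block, -0.14 with DESeq2 and the length trend removed, and -0.14 with length and GC trends removed. Leaving out each library in turn gave -0.33 to -0.23. For *Atr* the range was -0.33 to -0.09, and the value nearest to 0 came without IL-4Rα-/- replicate 2. For *Trrap* it was -0.28 without IL-4Rα+/+ replicate 1 to -0.15 without IL-4Rα+/+ replicate 3, and for *Atm* -0.47 to -0.27, the latter without IL-4Rα-/- replicate 2.

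Genes called numbered 0 with edgeR in every alternative, 80 with DESeq2 and 28 with DESeq2 and the length trend removed, and partner genes called numbered 0 in every alternative. Partner genes with an unadjusted p under 0.05 numbered 15 as reported, 7 with the length trend removed, 9 with DESeq2 and the length trend removed, 7 with length and GC trends removed, and 4 to 15 when each library was left out, with 4 without IL-4Rα-/- replicate 1, 5 without IL-4Rα+/+ replicate 2 and 8 without IL-4Rα-/- replicate 2. The replicate block gave 7, and 4 together with the length trend removed. Same-numbered libraries had correlations of 0.18, -0.27 and -0.30 in their deviations from the group means, and 1 of 3 correlated best with its own number, so the numbers were not taken as pairs. All 400 values of the 25 partner and comparison genes kept their direction. Counting error is at most 4.63% for a kinase gene in any library, and the number of mice, 3 per genotype, limits the precision more than depth.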

Other observations

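Monocyte subset markers differed between libraries within each genotype. *Ccr2*, which marks classical monocytes, was at 380, 1045 and 1668 CPM in IL-4Rα+/+ and at 826, 2008 and 979 CPM in IL-4Rα-/- replicates 1 to 3. *Ace*, which marks non-classical monocytes, was at 2774, 2123 and 1088 CPM and at 1745, 710.0 and 1604 CPM. Within each genotype, *Trrap* was lowest in replicate 1 and followed the order of *Ccr2*, with 135, 160 and 162 CPM in IL-4Rα+/+ and 126, 140 and 132 CPM in IL-4Rα-/-, which was noticed in the values and not tested. IL-4Rα-/- replicate 2, the lowest library for 4 of the 6 kinase genes, had the highest level of *Il4ra* among the IL-4Rα-/- libraries, of 9 neutrophil markers (685 CPM) and of 11 pancreatic acinar markers (367 CPM, against 10.5 to 54.2 CPM in the other 5 libraries). The part of these cells in the levels of the kinase genes was not tested.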
